A study of Mus musculus with 12 samples.

Results

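The 37 genes described here encode products that hepatic stellate cells make or that build the extracellular matrix of the liver. They were chosen by gene symbol, with earlier results of these data known, and all 37 were found among the 25919 rows of the count table. The study sequenced poly(A) RNA from the 3' end in 12 bulk libraries of C57BL/6 mouse liver, from animals aged 7 weeks, and the protocol speaks of RNA from liver with no sort described. The labels give 4 groups: Kupffer cells at day 0 (2 libraries), Kupffer cells at day 7 (2), cells called CD40 at day 2 (4) and cells called Ly6C CD40 neg at day 2 (4). Kupffer cells are the resident macrophages of the liver, and CD40 is a receptor of antigen-presenting cells. All groups carry the same strain, tissue and age labels, and no genetic change or agent is named for any of them. The labels do not say what the day counts from, how the named cells were obtained, or whether each library came from its own animal. The spread between libraries, on which the p-values rest, may therefore be technical.

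Stellate cells lie between the sinusoidal endothelium and the hepatocytes. At rest they store vitamin A as retinyl esters and keep up a thin basement membrane-like matrix. In injured liver they turn into contractile myofibroblasts that lay down fibrillar collagen. Macrophages are no major source of most of these transcripts, although they make some of the inhibitors and proteases that act on matrix, and sinusoidal endothelial cells share several of the basement membrane genes.

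Only CD40 day 2 and Kupffer day 0 were compared, on 6 libraries. Letters a and b (Kupffer day 0) and a to d (CD40 day 2) follow the columns from left to right and serve as names alone. Going down the 25919 rows, Kupffer day 0 a never rises, and the first column of Kupffer day 7 and that of Ly6C CD40-negative day 2 each rise once, which columns of different samples joined by gene would not do. Neither of those groups was therefore read by gene. The CD40 day 2 columns rise 7642 to 9144 times and Kupffer day 0 b 7828 times. Total counts were 1612435 and 688498 in Kupffer day 0 and ran from 725683 to 2271228 in CD40 day 2. No library repeated another of its group, as the chi-square of each pair, divided by its degrees of freedom, was 3.17 to 11.7. Group label and day differ together and cannot be told apart, and in bulk RNA fewer cells of a type cannot be told apart from less RNA per cell. As a check of the labels, 15 Kupffer cell markers took 0.609% and 0.521% of counts in Kupffer day 0, while 17 markers of sinusoidal endothelium took 1.92% and 1.98%. Cdh5 is on both lists and held 948 of the 13411 counts of the Kupffer cell list in Kupffer day 0.

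Several members lie next to each other in the genome. Col4a1 and Col4a2, the paired chains of the type IV collagen network, stand head to head on chromosome 8, and their annotated transcripts start within each other. Both genes passed the test with nearly equal log2 fold changes (-4.61 and -4.43), but so did Hspg2 and Nid1 on other chromosomes (-4.79 and -4.74). The stretch at chr8:11312801-11312830 (RefSeq, GRCm38.p6, + strand) is shown for the overlap of the starts. Its capitals mark the 22 bases that belong to both transcripts, read rightward in Col4a2 and leftward in Col4a1.
Col4a2/Col4a1 start: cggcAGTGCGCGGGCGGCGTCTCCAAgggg
Dcn and Lum, both small leucine-rich proteoglycans, lie 46984 bases apart on chromosome 10, and Col6a1 and Col6a2 lie 85161 bases apart on the same chromosome.

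Of the 37 members, 24 had a promoter sequence in the RefSeq table (GRCm38.p6). The 250 bases before the start site were searched for GGAATG on both strands, the letters bound by TEAD factors, which act on Cyr61 as a target of mechanical signalling. The letters occurred in 7 of the 24 genes (Lrat, Col3a1, Col6a2, Nid1, Acta2, Timp1 and Cyr61), and in 12.6% of 32851 promoter windows of the same length. A gene was counted if any of its windows held the letters, so the share of genes and that of windows are unlike measures. 3 of them are shown, with the letters in capitals. Cyr61 and Lrat were lower in CD40 day 2. Timp1 had overlapping groups and too few counts for the test, so it is not known to be unchanged. The windows are chr3:145649986-145650235 (- strand) for Cyr61, chr3:82903975-82904224 (- strand) for Lrat and chrX:20869916-20870165 (+ strand) for Timp1.
Cyr61: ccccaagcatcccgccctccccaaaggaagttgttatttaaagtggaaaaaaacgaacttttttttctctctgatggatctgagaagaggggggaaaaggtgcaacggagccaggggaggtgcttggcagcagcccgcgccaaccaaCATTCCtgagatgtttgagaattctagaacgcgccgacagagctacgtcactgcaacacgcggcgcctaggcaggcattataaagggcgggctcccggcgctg
Lrat: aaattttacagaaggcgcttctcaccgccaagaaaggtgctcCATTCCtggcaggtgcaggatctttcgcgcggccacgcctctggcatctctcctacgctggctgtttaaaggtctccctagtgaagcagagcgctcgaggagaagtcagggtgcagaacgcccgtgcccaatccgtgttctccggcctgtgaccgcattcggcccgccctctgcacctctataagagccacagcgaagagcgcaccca
Timp1: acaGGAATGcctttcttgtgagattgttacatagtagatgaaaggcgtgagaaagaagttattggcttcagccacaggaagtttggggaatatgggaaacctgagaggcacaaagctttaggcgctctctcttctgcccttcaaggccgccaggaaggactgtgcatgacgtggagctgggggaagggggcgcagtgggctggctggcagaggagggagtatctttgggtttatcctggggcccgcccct
A match of letters is a description of the sequence and not of binding. The CArG box, the letters of serum response factor, occurred before none of the 24 genes and in 1.47% of all windows.

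The members as a group were far lower in CD40 day 2. They took 0.420% and 0.364% of all counts in the Kupffer day 0 libraries. In CD40 day 2 they took 0.026%, 0.00909%, 0.021% and 0.0158% in libraries a to d. The mean share was 0.392% ± 0.0395 (SD, n = 2) against 0.018% ± 0.00725 (n = 4), a ratio of 21.8. The groups did not overlap. Of the 25 members with enough counts to be tested, 24 were lower in CD40 day 2, none was higher and Timp2 did not pass (edgeR quasi-likelihood test, two-sided, adjusted p under 0.05 over 9852 genes). All 25 had a negative log2 fold change, so 0 were higher at an unadjusted p under 0.05 as well, and 0 were higher by the DESeq2 Wald test. Among all genes tested, 30.2% were lower and 23.2% higher, or 53.4% in either direction. The median log2 fold change of the tested members was -4.93, beside -0.10 for all genes tested. These counts say little by themselves, since 18 of the 25 reached the filter's level in fewer than 2 CD40 day 2 libraries. That level is 7.16 counts in 1e6 of the library total as deposited, whereas CPM in the rest of the text divides by the total scaled with TMM factors. It is needed in 2 libraries, and a gene that is tested through its Kupffer day 0 level alone had to differ. Every CD40 day 2 library lay below every Kupffer day 0 library for 34 of the 37 members, 9 of them untested. Among genes tested this held for all 25 members and for 36.9% of all genes. No member lay wholly above, as 29.7% of all genes tested did, and Acta2, Tagln and Timp1 overlapped.

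**Figure D1:**
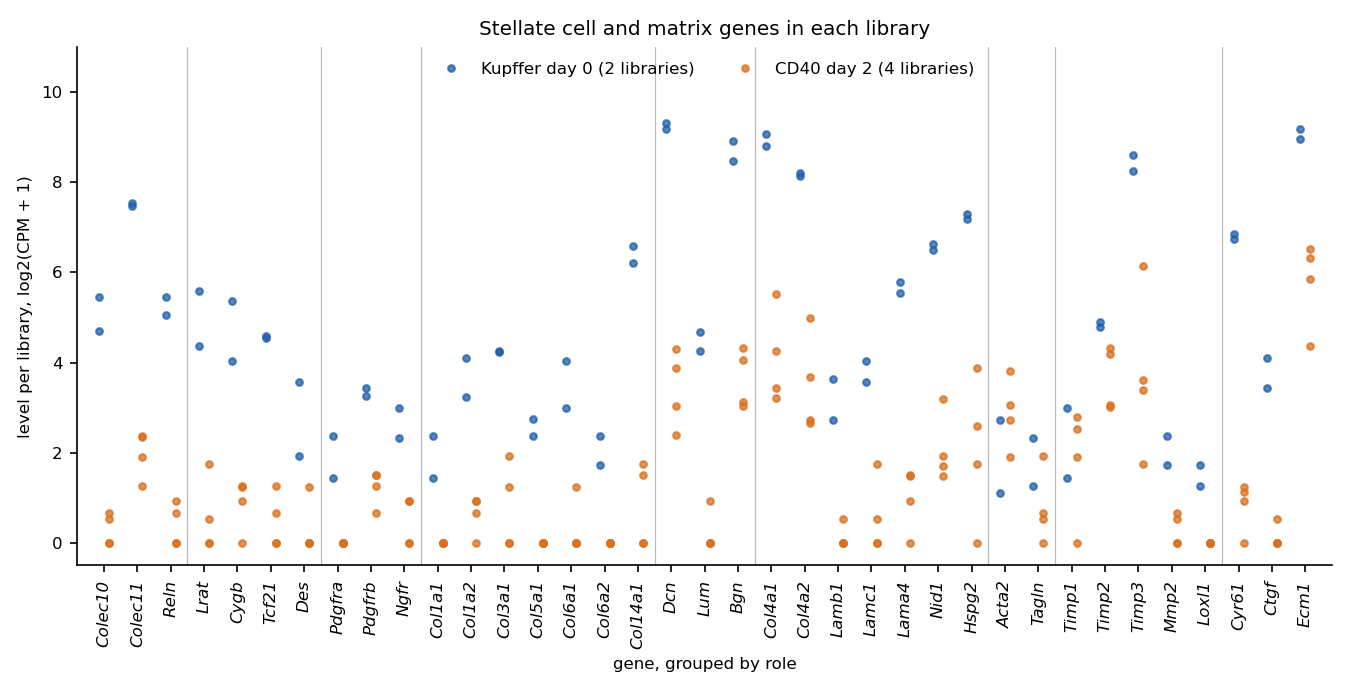
Level of each of the 37 genes in every library, as log2 of CPM plus 1, with genes grouped by role between grey lines; each point is 1 library, blue for Kupffer day 0 (2) and orange for CD40 day 2 (4). The colours separate for 34 genes and overlap for Acta2, Tagln and Timp1.

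The secreted lectins and reelin, which in liver mark stellate cells, were all lower in CD40 day 2. None of the 3 reached the filter's level in 2 CD40 day 2 libraries, so the filter fixed their direction. Colec11 encodes a collectin, a soluble lectin of the complement system (chromosome 12, 28594173 to 28623377). It was at 185 and 177 CPM in Kupffer day 0 and at 2.73, 1.41, 4.10 and 4.17 CPM in CD40 day 2 a to d. Its level was thus close to even in the first group and near that of a few counts in each library of the second (log2 fold change -5.67 ± 0.25 SE, adjusted p = 4.12e-07). Reln encodes reelin, a large matrix glycoprotein (chromosome 5, 21884454 to 22344702). It was at 43.1 and 32.0 CPM against 0, 0, 0.91 and 0.596 CPM, with 98 counts against 3. The ratio was 75.4-fold lower, with a 95% interval of 25.1 to 372 that covers counting error only, as do all intervals of this kind below. Colec10, a collectin that pairs with Colec11, held 93 counts against 2 (107-fold lower, counting interval 28.9 to 900). Reln overlaps 7 other annotated genes and Colec10 overlaps 1, and no source used here gives the strand rule of the counting.

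Genes of the resting stellate cell fell alongside. None of the 3 tested reached the filter's level in 2 CD40 day 2 libraries, so the filter fixed their direction too. Lrat encodes the enzyme that esterifies retinol for storage (chromosome 3, 82892579 to 82903973). Its values were 47.1 and 19.5 CPM in Kupffer day 0 and 0, 0, 0.455 and 2.38 CPM in CD40 day 2. The 2 Kupffer libraries differed from each other, and both stood above CD40 day 2 (log2 fold change -5.19 ± 0.66, adjusted p = 0.000129). Cygb encodes cytoglobin, a globin of stellate cells (chromosome 11, 116645595 to 116654313). It was at 40.2 and 15.3 CPM against 0.91, 1.41, 1.37 and 0 CPM (-4.93 ± 0.62, adjusted p = 0.000124). As for Lrat, library a held the higher Kupffer value. Without Kupffer day 0 a, which leaves 1 library that is assumed to vary like the others, the changes were -4.35 for Lrat (adjusted p = 0.0124) and -3.98 for Cygb (adjusted p = 0.0133). Without CD40 day 2 d that of Lrat was -6.69 (adjusted p = 8.39e-05). Tcf21, a transcription factor of stellate and other mesenchymal cells, held 56 counts against 2 (64.7-fold lower, counting interval 17.1 to 547). For Des, the intermediate filament desmin, Kupffer day 0 held 19 and 2 counts and CD40 day 2 held 3, all in library c, too few for the test. Lrat, Cygb, Tcf21 and Des each overlap 1 gene on the opposite strand.

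The receptors were scarce in both groups. Pdgfrb, the receptor through which platelet-derived growth factor drives stellate cell division, was at 8.61 and 9.75 CPM in Kupffer day 0. In CD40 day 2 it was at 1.82, 1.41, 1.82 and 0.596 CPM. This was a smaller change than the median of the tested members (-2.61 ± 0.51, adjusted p = 0.00178), on 22 counts against 8. Pdgfrb did not reach the filter's level in 2 CD40 day 2 libraries, so the filter fixed its direction. Ngfr, the low-affinity neurotrophin receptor, held 7 and 5 counts against 1, 0, 2 and 0. Pdgfra held 3 and 3 counts against 0 in each CD40 day 2 library, which is 4.62-fold lower when the group's 0 is set at a floor of 3 counts over its libraries. That floor leaves out the counting error of the Kupffer day 0 counts, and the exact 95% interval that includes it reaches down to 2.72-fold. Neither had enough counts for the test.

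Interstitial collagens were detected at low levels, and the most counts belonged to a minor fibril-associated one. None of the 4 tested reached the filter's level in 2 CD40 day 2 libraries, so the filter fixed their direction. Col14a1 encodes a collagen that sits on the surface of fibrils (chromosome 15, 55307750 to 55520803). It was at 95.3 and 72.4 CPM in Kupffer day 0 and at 0, 0, 1.82 and 2.38 CPM in CD40 day 2 (-5.85 ± 0.44, adjusted p = 5.26e-06). Libraries c and d held all 8 of its counts in the second group. Col3a1, the type III chain (chromosome 1, 45311538 to 45349706), was at 17.8 and 18.1 CPM against 0, 2.83, 1.37 and 0 CPM (-4.21 ± 0.67, adjusted p = 0.000533). Col1a2, a type I chain, fell by 4.06 on the log2 scale (34 counts against 4, adjusted p = 0.000257), and Col6a1, a chain of the beaded filaments around cells, held 32 counts against 3 (24.6-fold lower, counting interval 7.71 to 126). Col1a1, the main chain of scar collagen, held 3 and 3 counts against 0 in CD40 day 2, 4.62-fold lower by the same floor (lower counting limit 2.72). Col5a1, which starts fibrils, held 10 and 3 counts against 0 (10.01-fold lower by the floor, counting limit 7.04). Col6a2 held 4 and 3 against 0 (5.39-fold lower by the floor, counting limit 3.33). Col1a1, Col5a1 and Col6a2 were not tested. Markers of portal fibroblasts and smooth muscle, the other collagen-making cells of the liver, were also near the detection limit. The 16 genes of that list in the table took 0.00211% and 0.00508% of counts in Kupffer day 0 and 0.000689% to 0.00163% in CD40 day 2, and only Pi16 had enough counts to be tested (adjusted p = 0.527).

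Of the small leucine-rich proteoglycans, which bind collagen fibrils and growth factors, Dcn and Bgn were well measured. Dcn, decorin (chromosome 10, 97479609 to 97518143), was at 634 and 579 CPM in Kupffer day 0. In CD40 day 2 it was at 13.7, 4.24, 18.7 and 7.15 CPM. The highest of these was in library c and the lowest in b, and none came near Kupffer day 0 (-5.66 ± 0.33, adjusted p = 1.3e-06). Bgn, biglycan (chromosome X, 73483602 to 73495933), was at 483 and 355 CPM against 19.1, 15.6, 7.74 and 7.15 CPM (-5.20 ± 0.32, adjusted p = 1.7e-06). Here libraries a and b were higher than c and d, an order that Dcn did not share. Lum, lumican, held 56 counts against 1 (129-fold lower, counting interval 22.3 to 5199). It did not reach the filter's level in 2 CD40 day 2 libraries, so the filter fixed its direction.

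Of the 7 basement membrane genes, the 6 that were tested fell, beside 30.2% lower among all genes tested. This count says little by itself, as 4 of the 6 reached the filter's level in fewer than 2 CD40 day 2 libraries. Those 4 were tested through their Kupffer day 0 level. Col4a1, Col4a2, Hspg2 and Nid1 kept their highest CD40 day 2 level in library a, whereas Lama4 was about even in a and d, and Lamc1 and Lamb1 had no count in a. Col4a1 (chromosome 8, 11198423 to 11312826) was at 536 and 447 CPM in Kupffer day 0 and at 44.6, 9.90, 18.2 and 8.34 CPM in CD40 day 2 a to d (-4.61 ± 0.45, adjusted p = 2.46e-05). Col4a2 (11312805 to 11449287) was at 292 and 281 CPM against 30.9, 5.66, 11.8 and 5.36 CPM (-4.43 ± 0.45, adjusted p = 3.16e-05). In both genes library a was highest, c next, and b and d lowest. Both genes are read in the same libraries, so their common order is 1 observation and not 2. Hspg2, the heparan sulfate proteoglycan perlecan, was at 145 and 156 CPM against 13.7, 0, 5.01 and 2.38 CPM (-4.79 ± 0.48, adjusted p = 2.93e-05). Nid1, nidogen, which ties laminin to type IV collagen, was at 97.6 and 89.1 CPM against 8.19, 2.83, 2.28 and 1.79 CPM (-4.74 ± 0.38, adjusted p = 7.33e-06). Lama4, a laminin chain of vessel walls, held 119 counts against 7 (-5.23 ± 0.41, adjusted p = 6.37e-06). Lamc1, the gamma chain of most laminins, held 30 counts against 5 (-3.72 ± 0.70, adjusted p = 0.00146). Lamb1, the beta chain, was not tested (24 counts against 1, 55.4-fold lower, counting interval 9.04 to 2280). Col4a1, Lamc1, Nid1 and Hspg2 overlap further annotated genes.

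Without CD40 day 2 a the falls were deeper, at -5.25 for Col4a1, -5.10 for Col4a2, -5.52 for Hspg2 and -5.36 for Nid1 (adjusted p = 3.71e-06 to 1.46e-05). Without CD40 day 2 d, which held 4 of the 5 counts of Lamc1 in its group, that gene's change was -5.21. The summed share of sinusoidal endothelial markers was highest in library a as well. The 17 genes took 0.0805% of its counts, against 0.0293% to 0.0375% in b to d. Taken singly, Kdr (97.6 CPM against 42.8 in a) and Dpp4 (53.8 against 35.5) were highest in b. Stab1 was highest in d (40.5 against 35.5 in a), and the others in a. Every one of the 17 was lower in CD40 day 2 than in Kupffer day 0, with a median log2 fold change of -5.05. The part of endothelial RNA in the basement membrane values was not tested.

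**Figure D2:**
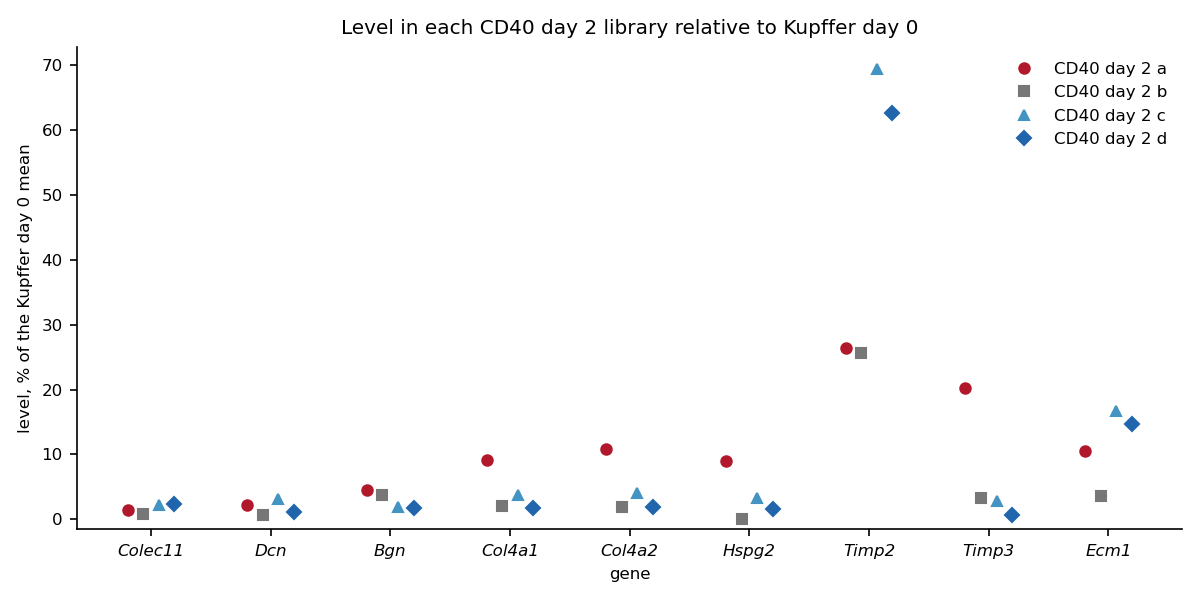
Level of the 9 members with at least 20 counts in each group in the 4 CD40 day 2 libraries, as a percent of the Kupffer day 0 mean; each symbol is 1 library. Library a is highest for 5 genes (Bgn, Col4a1, Col4a2, Hspg2, Timp3), whereas Timp2 and Ecm1 are highest in c and d.

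The contractile genes of myofibroblasts did not separate the groups. Acta2 encodes smooth muscle alpha-actin, the standard marker of stellate cell activation (chromosome 19, 34241090 to 34255590). Its counts were 2 and 4 in Kupffer day 0 a and b and 3, 4, 16 and 22 in CD40 day 2. That is 1.15 and 5.57 CPM against 2.73, 5.66, 7.28 and 13.1 CPM, so the groups overlapped. The pooled ratio was 3.25-fold higher in CD40 day 2, with a counting interval of 1.38 to 9.31. The gene was not tested, and with every gene of at least 1 count included it did not pass (log2 fold change 1.53 ± 0.67, adjusted p = 0.0713). Tagln, transgelin, an actin-binding protein of smooth muscle, held 7 and 1 counts against 0, 2, 1 and 1, with overlapping groups.

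The genes of matrix turnover split by member. Timp3, an inhibitor of metalloproteinases that binds to matrix (chromosome 10, 86300372 to 86349506), was at 304 and 390 CPM in Kupffer day 0. In CD40 day 2 it was at 70.1, 11.3, 9.56 and 2.38 CPM, and library a stood far above the other 3 (-3.98 ± 0.76, adjusted p = 0.00154). Without library a the change was -5.55 (adjusted p = 1.16e-05). Timp2 (chromosome 11, 118301069 to 118355740), whose product both inhibits Mmp2 and helps to activate it, was at 28.7 and 26.5 CPM against 7.28, 7.07, 19.1 and 17.3 CPM. Its groups did not overlap, yet the difference did not pass (-1.0 ± 0.39, 95% interval -1.88 to -0.12, adjusted p = 0.0548). Libraries a and b held 26.4% and 25.6% of the Kupffer mean, and c and d held 69.3% and 62.6%. Timp2 passed under 5 of 11 alternatives, with adjusted p = 0.0169 to 0.0492. Timp1, the inducible inhibitor of injured liver (chromosome X, 20870166 to 20874735), held 3 and 5 counts against 3, 0, 13 and 8, with overlapping groups and no test. Mmp2, the gelatinase of stellate cells, held 7 counts against 2 (8.08-fold, counting interval 1.54 to 79.8) and did not pass with every gene of at least 1 count included (adjusted p = 0.0667). Loxl1, a cross-linking enzyme of elastic fibres, held 4 and 1 counts against 0 (3.85-fold lower by the floor of 3 counts, counting limit 2.12). Timp1 and Timp3 lie inside the synapsin genes Syn1 and Syn3 on the opposite strand.

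Among the secreted matricellular genes, Ecm1 kept the highest level in CD40 day 2. Ecm1 encodes extracellular matrix protein 1, which in liver holds latent TGF-beta inactive (chromosome 3, 95734147 to 95739569). It was at 580 and 499 CPM in Kupffer day 0 and at 56.4, 19.8, 90.1 and 79.2 CPM in CD40 day 2. All 4 were lower, with b the lowest and c and d the highest (-3.07 ± 0.37, adjusted p = 9.5e-05). Cyr61, a matrix-bound signal induced through YAP (annotated as Ccn1, chromosome 3, 145646976 to 145649981), was at 106 and 114 CPM against 0.91, 0, 1.37 and 1.19 CPM (-6.59 ± 0.33, adjusted p = 6.25e-07). It had the lowest log2 fold change of the 25 tested members. Ctgf, its relative and a target of TGF-beta, held 28 and 7 counts against 1 (80.8-fold lower, counting interval 13.6 to 3283). Cyr61 and Ctgf did not reach the filter's level in 2 CD40 day 2 libraries, so the filter fixed their direction.

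**Figure D3:**
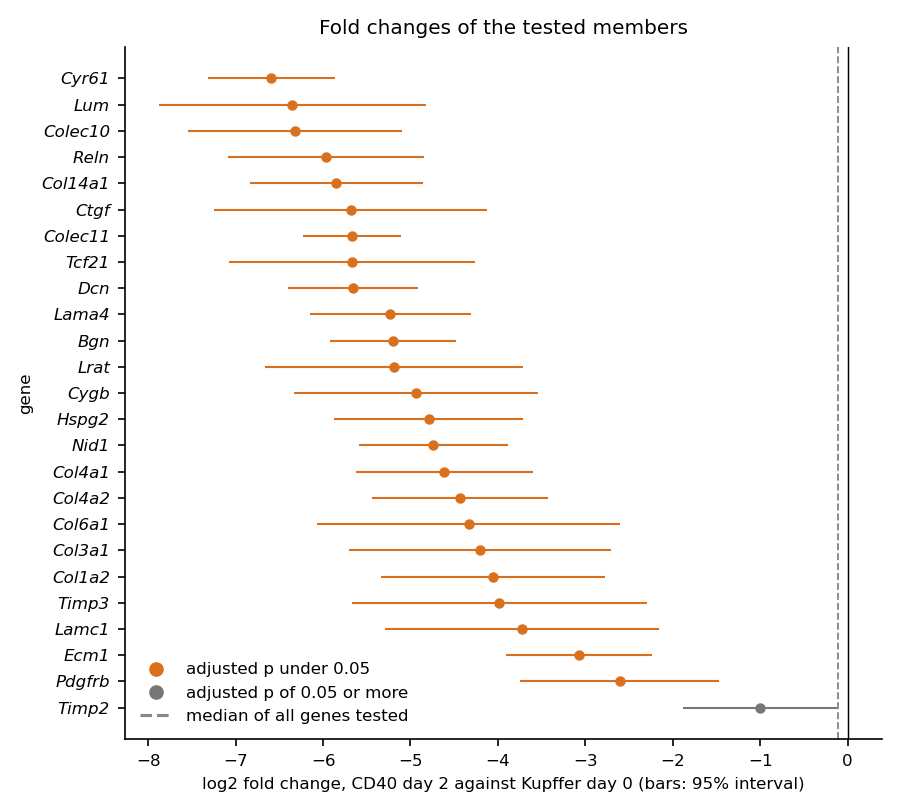
Log2 fold change of the 25 tested members, CD40 day 2 against Kupffer day 0, with 95% intervals; orange points passed an adjusted p of 0.05 and the grey one did not, and the dashed line is the median of all genes tested (-0.10). Values run from -6.59 for Cyr61 to -1.0 for Timp2.

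Lists of cell type markers were summed in the same way to set the members beside other cells. A list of 25 further stellate genes, such as growth factors, hormone receptors and channels, took 0.106% and 0.0797% of counts in Kupffer day 0 and 0.0022% to 0.00361% in CD40 day 2. Hepatocyte markers took 0.047% and 0.121% against 0.0193% to 0.0336%. Of the 12 tested hepatocyte markers 9 were lower and 1, Ass1, was higher. Ass1 held 627 of that list's 1434 counts in CD40 day 2, and 15 of 1589 in Kupffer day 0. Of the 15 Kupffer cell markers 12 were lower and 2 higher, and their share in CD40 day 2 was 0.0266% to 0.0407%. Classical monocyte markers took 0.192% and 0.183% in Kupffer day 0 and 1.72% to 2.43% in CD40 day 2. Mesothelial markers took 0.000372% and 0.0061% in Kupffer day 0 a and b, and held 2 counts in all of CD40 day 2. The part of these cells in the members' levels was not tested.

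**Figure D4:**
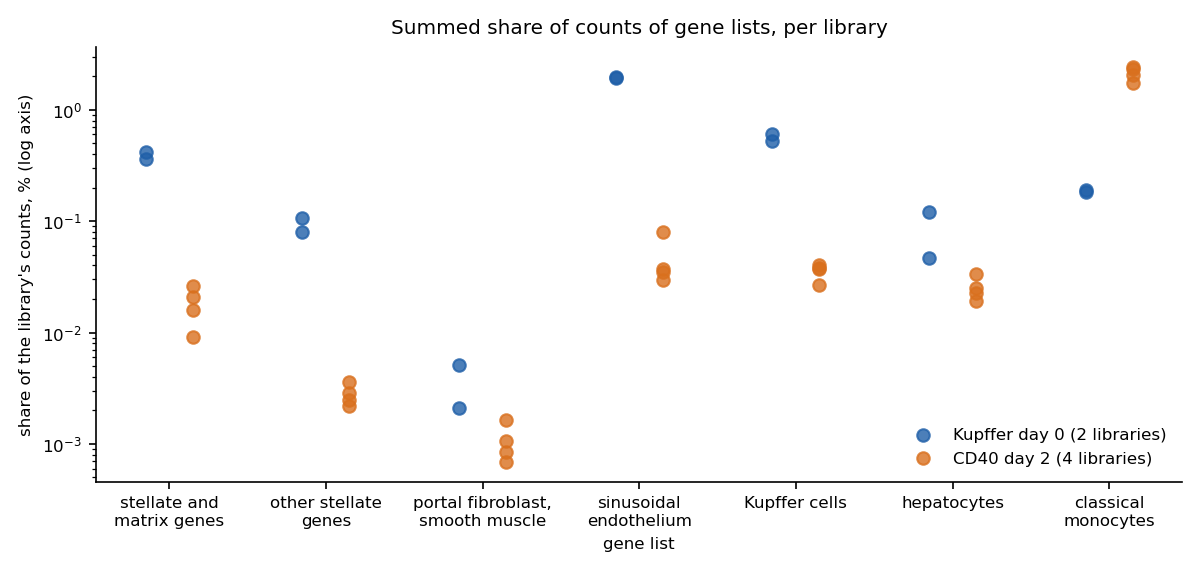
Summed share of a library's counts, in percent on a log axis, for the 37 members and 6 marker lists; each point is 1 library. The members (0.364% and 0.420% against 0.00909% to 0.026%), other stellate genes and the endothelial and Kupffer lists are lower in CD40 day 2, and the classical monocyte list is higher (1.72% to 2.43% against 0.183% and 0.192%).

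Further genes of stellate cells and of the matrix were described through lists outside the members. Their counts are to be read beside the 30.2% lower and 23.2% higher of all genes tested, and beside how many of a list's tested genes reached the filter's level in at least 2 CD40 day 2 libraries. The 16 tested genes of the stellate list were lower in CD40 day 2 (median log2 fold change -4.83), but none of the 16 reached that level there, so the direction was fixed by the filter. Cxcl12, a chemokine that holds haematopoietic cells in place, was at 2.45 ± 1.30 CPM (SD, n = 4) against 192 ± 33.9 (n = 2; -6.25 ± 0.33, adjusted p = 8.93e-07). Sod3, the extracellular superoxide dismutase, was at 2.54 ± 0.92 against 82.1 ± 5.75 CPM. Of 10 tested retinoid genes 9 were lower (median -3.20), and 3 of the 10 reached the level in CD40 day 2. These included Cyp26b1, which breaks down retinoic acid (5.88 ± 2.07 against 59.4 ± 24.9 CPM, adjusted p = 3.3e-05), and Rarb, a retinoic acid receptor, with 130 counts against 3.

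Of 17 tested genes that process collagen, 8 of which reached the level in CD40 day 2, 11 were lower and 2 higher (median -2.44). Without Kupffer day 0 a 5 were lower and none higher among 13 tested. Pcolce2, an enhancer of procollagen cleavage, held 97 counts against 1, and Pcolce, its relative, was at 3.46 ± 3.86 against 87.3 ± 3.26 CPM (adjusted p = 3.24e-05). Crtap, of the prolyl 3-hydroxylation complex, was at 7.94 ± 3.49 against 72.5 ± 11.6 CPM (adjusted p = 2.96e-05). Plod3, a lysyl hydroxylase, was at 92.0 ± 17.0 against 56.6 ± 8.59 CPM (0.74 ± 0.23, adjusted p = 0.0211), and Ppib, a prolyl isomerase of the endoplasmic reticulum, at 833 ± 120 against 570 ± 14.2 CPM (0.55 ± 0.18, adjusted p = 0.0245). Both kept a positive log2 fold change but did not pass under 3 alternatives. With library totals as the only scaling it was 0.57 for Plod3 (adjusted p = 0.0544) and 0.38 for Ppib (adjusted p = 0.0841). Without Kupffer day 0 a it was 0.56 and 0.57 (adjusted p = 0.214 and 0.118), and without Kupffer day 0 b 0.88 and 0.52 (adjusted p = 0.0558 and 0.131). Plod3 also did not pass without CD40 day 2 c (0.64, adjusted p = 0.0602).

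Among other structural proteins of the matrix, 13 of 18 tested were lower and 3 higher (median -3.57), and 7 of the 18 reached the level in CD40 day 2. Col13a1, a membrane-bound collagen, was at 5.39 ± 2.06 against 324 ± 28.5 CPM, Prelp, a proteoglycan, at 1.55 ± 1.33 against 141 ± 7.18 CPM, and Wisp1, of the family of Cyr61 and Ctgf, at 0.569 ± 0.683 against 54.7 ± 3.43 CPM (adjusted p = 3.54e-07, 1.17e-06 and 6.81e-06). The 3 that rose were Spon1, Tgfbi and Thbs1. In Kupffer day 0, Spon1 held 8 and 2 counts and Thbs1 7 and 6. Neither reached the filter's level in both of those libraries. Both were thus tested through their CD40 day 2 level, and their calls say little by themselves. Spon1, spondin 1, was at 116 ± 30.2 against 3.69 ± 1.28 CPM (4.82 ± 0.39, adjusted p = 7.39e-06). Tgfbi, a TGF-beta-induced adhesion protein, was at 786 ± 529 against 116 ± 21.7 CPM (2.76 ± 0.58, adjusted p = 0.00278). Thbs1, thrombospondin 1, which activates latent TGF-beta, was at 32.6 ± 15.5 against 6.19 ± 3.07 CPM (2.64 ± 0.60, adjusted p = 0.00426), which did not pass when Kupffer day 0 a was left out (adjusted p = 0.105).

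Of 14 tested matrix proteases and regulators, 12 of which reached the level in CD40 day 2, 5 were lower and 4 higher (median 0.06), shares near those of all genes. Without Kupffer day 0 a, 3 were lower and 2 higher. Plaur, the urokinase receptor, was at 394 ± 102 against 80.8 ± 35.5 CPM (2.34 ± 0.34, adjusted p = 0.0003) and Adam17, the TNF-releasing sheddase, at 94.5 ± 13.3 against 39.1 ± 5.76 CPM (1.31 ± 0.22, adjusted p = 0.000727). Plau, urokinase, was at 29.6 ± 11.97 against 7.50 ± 0.76 CPM (adjusted p = 0.00389, and 0.0551 without Kupffer day 0 a). Adamts1, a protease that cuts proteoglycans, was at 18.2, 1.41, 1.82 and 0.596 CPM in CD40 day 2 a to d and at 164 and 196 CPM in Kupffer day 0 (-5.19 ± 0.64, adjusted p = 0.00011), with library a highest as for Timp3. Adamts10 was at 11.9 ± 4.78 against 36.5 ± 0.379 CPM (adjusted p = 0.00296) and Adam10, a sheddase, at 76.1 ± 30.8 against 165 ± 10.5 CPM (adjusted p = 0.0126, and 0.106 and 0.0542 without Kupffer day 0 a and b).

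In the TGF-beta and PDGF axis, 10 of 15 tested genes were lower and 2 higher (median -2.24), and 10 of the 15 reached the level in CD40 day 2. Ltbp4, which stores latent TGF-beta in the matrix, was at 7.28 ± 1.94 against 387 ± 73.1 CPM, Eng, an endothelial co-receptor that is also on the endothelial list, at 28.4 ± 15.6 against 942 ± 27.1 CPM, and Smad6, an inhibitor of BMP signalling, at 7.25 ± 2.34 against 100 ± 27.7 CPM (adjusted p = 3e-07, 2.11e-06 and 4.77e-06). Smad2, a signal carrier of the pathway (61.8 ± 10.1 against 31.0 ± 6.46 CPM, adjusted p = 0.00782), and Skil, its feedback repressor (47.1 ± 7.83 against 27.6 ± 1.59 CPM, adjusted p = 0.0231), were higher. The call of Skil was lost under 5 of the 7 alternatives run for it (adjusted p = 0.0508 to 0.116) and that of Smad2 without Kupffer day 0 b (0.0728). Of the genes of YAP, TEAD and serum response factor signalling, 10 of 14 tested were lower and 1 higher (median -2.30), with 7 of the 14 reaching the level. Wwtr1, the YAP partner TAZ, was at 2.51 ± 1.41 against 117 ± 9.89 CPM, the YAP-binding angiomotin relatives Amotl1 at 4.59 ± 1.87 against 154 ± 10.7 CPM and Amotl2 at 2.40 ± 2.21 against 75.2 ± 3.99 CPM (adjusted p = 8.93e-07, 1.19e-06 and 5.27e-06), while Axl, a receptor through which macrophages take up dying cells, rose from 103 ± 0.609 to 224 ± 29.2 CPM (1.12 ± 0.19, adjusted p = 0.000712). Of the receptors that bind matrix, 8 of 15 tested were lower and 1 higher (median -0.92), with 7 of the 15 reaching the level. The integrin chains Itga9, Itga1 and Itga8 fell to 5.35 ± 2.20, 5.42 ± 2.38 and 1.77 ± 0.914 CPM from 115 ± 5.66, 148 ± 10.6 and 68.4 ± 2.26 CPM (adjusted p = 1.36e-06, 1.48e-06 and 2.05e-06), and Sdc4, a syndecan, rose from 35.2 ± 0.551 to 149 ± 58.7 CPM (2.10 ± 0.41, adjusted p = 0.00183).

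**Figure D5:**
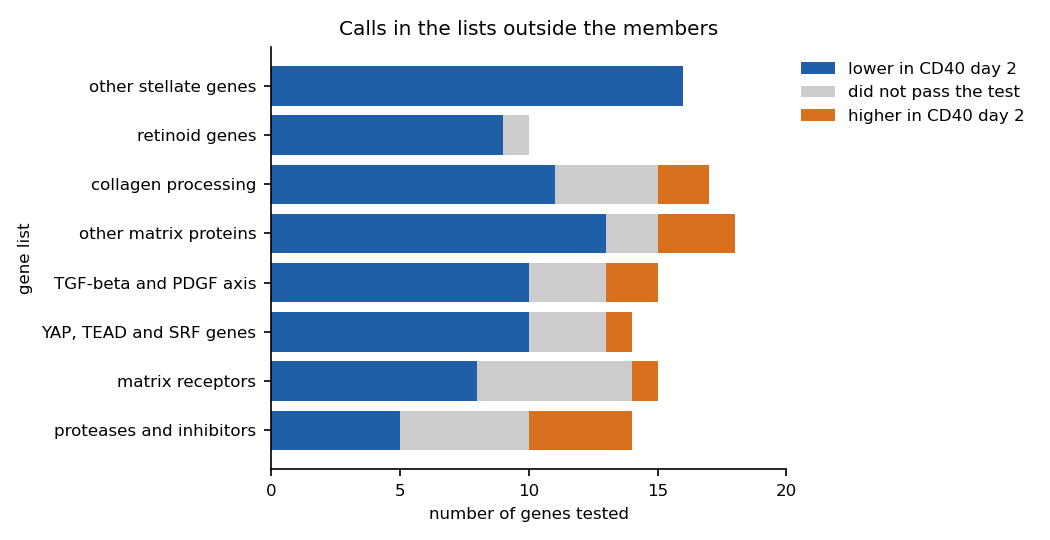
Number of tested genes in 8 lists outside the members that were lower (blue), higher (orange) or did not pass the test (grey), CD40 day 2 against Kupffer day 0, at an adjusted p of 0.05. Lists differ in how many of their genes could be tested through CD40 day 2 (0 of 16 other stellate genes, 12 of 14 proteases and inhibitors), so bars of different lists are not to be compared; of all genes tested 30.2% were lower and 23.2% higher.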

How the data were processed

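The authors deposited 1 table of raw counts per gene symbol for 12 libraries. Per the labels' protocols, a barcode and a molecular identifier were added at reverse transcription, and pooled cDNA was sequenced from the 3' end. The submitters' processing notes list the build GRCm38.p6 and the tool DESeq2 1.22.2. Aligner, counter, strand rule and whether the deposited counts are reads or molecules: not given in the sources used here.

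Counts of the 6 compared libraries were tested with edgeR 4.0.16 in R 4.3.3 (quasi-likelihood test, TMM scaling, filterByExpr, no block, two-sided, Benjamini-Hochberg adjustment over 9852 genes, threshold 0.05). CPM uses the TMM-adjusted totals, where 1 count is 0.455 to 1.41 CPM. A standard error is the log2 fold change over the square root of F. Counting intervals are exact 95% Poisson ratios of pooled counts. The other 6 libraries were not used by gene. The script was tested on simulated data. Members and lists were chosen with earlier results of these data known. Every member is named; values per library are given for the 2 members with the most counts in each role and for those that overlapped or did not pass, and, from each list outside the members, the 3 genes with the lowest p in each direction, except 1 gene that is not reported here. Positions are from GENCODE M21 (GRCm38). Alternatives were DESeq2 size factors, library totals, the DESeq2 1.42.0 Wald test, 2 other filters and leaving out each library.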

Additional observations from a re-analysis of the deposited data

Results flagged for a closer look

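In the 4 CD40 day 2 libraries, 3 of 14 values checked had 1 library farther from the rest than Dixon's 95% limit for 4 values (a gap of 0.829 of the range), where chance gives about 1 in 20. Each of the 3 was the high value of library a. All values come from the same 4 libraries, so the 3 are not independent and their number cannot be set against 1 in 20. Timp3 was at 70.1 CPM there, against 2.38 to 11.3 CPM in b to d. Nid1 was at 8.19 CPM, against 1.79 to 2.83 CPM, on few counts (9 in a, and 2, 5 and 3 in b to d). The sinusoidal endothelial list took 0.0805% of the counts of library a, against 0.0293% to 0.0375%.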

How the results depend on the processing

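All 25 tested members stayed lower in CD40 day 2 under the alternatives that gave them a value (252 values), and Timp2 was the 1 gene whose call changed, passing in 5. Members called lower were 24 when any 1 CD40 day 2 library was left out, of 24 to 26 tested. They were 24 or 25 of 25 under the other scalings and the DESeq2 test, beside 2398 to 3361 of 9852 genes. With every gene of at least 1 count included, 33 of 37 members were lower, beside 3701 of 20783 genes. With at least 10 counts needed in 4 libraries, 8 of 8 members were lower, beside 2033 of 7706 genes. Over all genes, 1800 to 2963 were lower and 1406 to 2551 higher when 1 library was left out (2974 and 2288 with all 6), the lowest numbers without Kupffer day 0 a. Genes called higher in the lists outside the members were 13, and 7 to 16 when 1 library was left out. Scaling by library totals moved the median of all genes from -0.10 to -0.27 and that of the tested members from -4.93 to -5.10. Leaving out Kupffer day 0 a or b, which leaves 1 library in that group, gave members still tested a median of -4.65 or -5.13. Without Ecm1 the members' share of Kupffer day 0 counts was 0.335%. Ecm1 held 1369 of the members' 9282 counts in Kupffer day 0 and 407 of their 1132 in CD40 day 2, a larger part there. Besides the genes given above, leaving out CD40 day 2 c moved Reln to -6.62 and Ctgf to -7.03, leaving out b or c moved Tcf21 to -6.26 or -5.07, and leaving out a moved Lum to -7.96, all on few counts. No paired analysis was possible because the columns carry no replicate number. Depth limits the 12 untested members, which held 5 to 24 counts in Kupffer day 0.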

Other observations

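The 2 Kupffer day 0 libraries differed in markers of the liver surface and of hepatocytes. Upk3b, a uroplakin of mesothelial cells, held 19 counts in library b and 4 in library a, although b has fewer counts in all. Gpm6a held 8 against 1, Msln, mesothelin, 7 against 1, and Lrrn4 5 against 0. Albumin (Alb) was at 196 CPM in b and 99.9 CPM in a. In CD40 day 2, Spp1, osteopontin, was at 29.1, 41.0, 40.5 and 112 CPM in a to d, against 6.89 and 25.1 CPM in Kupffer day 0. It was the only gene of the bile duct list with enough counts to be tested (2.07 on the log2 scale, adjusted p = 0.0276), and it is also made by macrophages.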
